A study of Homo sapiens with 6 samples.

Results

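The CRIP and CSRP family was followed by RNA sequencing in MHCC97H, a long-established cell line from a human hepatocellular carcinoma. Its 5 members here, CRIP1, CRIP2, CRIP3, CSRP1 and CSRP2, were taken by gene name from a deposited table of 58825 genes. The set was built around CRIP1, which was selected on its measured values in these libraries, so the values of the members between the labels are a description and not independent support. Libraries labelled shPTBP1, from cells with a short hairpin RNA against the splicing regulator PTBP1, were compared with libraries labelled shControl, 3 of each, numbered 1 to 3. All 6 came from the same cell line with a genotype labelled WT, and poly(A) RNA was sequenced. The labels do not say which hairpin was used, whether cells were pooled, or whether the libraries came from separate cultures, so p-values measure only the spread between these libraries, which may be technical.

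LIM domains are small zinc-binding folds, built from cysteines and histidines, that mostly hold other proteins. CRIP1 (cysteine-rich intestinal protein) is little more than a lone LIM domain and has been studied in zinc handling, immune cells and tumours, while CRIP2 and CRIP3 carry a pair of them. CSRP1 and CSRP2 (cysteine and glycine rich proteins) also carry a pair, bind alpha-actinin and zyxin, and sit on actin bundles. Their close relative CSRP3, the muscle LIM protein, was listed at 0 in all 6 libraries.

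The coding sequences show how the family is built, and the stretches below were read from the annotated transcripts (GENCODE release 29). The coding part of CRIP1 has 77 codons and 1 stretch with the spacing of a LIM domain, whereas CRIP2 (208 codons), CRIP3 (204), CSRP1 (193) and CSRP2 (193) have 2 each. The stretch of CRIP1 is set beside the first of CRIP2, its neighbour on chromosome 14, and the first of CSRP1 and of CSRP2, with the codons of the zinc-binding cysteines and histidine in capitals.
CRIP1, codons 4 to 56: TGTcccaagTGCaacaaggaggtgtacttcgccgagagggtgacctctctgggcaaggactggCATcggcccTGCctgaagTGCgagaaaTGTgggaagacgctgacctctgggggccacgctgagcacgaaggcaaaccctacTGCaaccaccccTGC
CRIP2, codons 5 to 57: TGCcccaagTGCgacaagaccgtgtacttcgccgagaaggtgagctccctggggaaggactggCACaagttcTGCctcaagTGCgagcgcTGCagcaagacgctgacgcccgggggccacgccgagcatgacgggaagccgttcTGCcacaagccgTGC
CSRP1, codons 10 to 61: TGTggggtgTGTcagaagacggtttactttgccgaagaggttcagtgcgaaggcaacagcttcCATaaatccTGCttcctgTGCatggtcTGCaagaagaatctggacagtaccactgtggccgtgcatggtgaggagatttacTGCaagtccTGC
CSRP2, codons 10 to 61: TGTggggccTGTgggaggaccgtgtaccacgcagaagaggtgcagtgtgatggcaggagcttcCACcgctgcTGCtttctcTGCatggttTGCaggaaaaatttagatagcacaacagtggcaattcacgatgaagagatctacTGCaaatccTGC
The stretches were found by the spacing of these zinc-binding codons, so their shared order in all 4 is set by the search. The stretch of CRIP1 encoded the same residue as the first stretch of CRIP2 at 40 of 53 aligned codons (75.5%) and as its second at 42 of 53 (79.2%). Against the first and second stretches of CSRP1 it shared 22 and 25 of 52 (42.3% and 48.1%). Against those of CSRP2 it shared 21 and 24 of 52 (40.4% and 46.2%). Against those of CRIP3 it shared 34 and 35 of 53 (64.2% and 66.0%). CSRP1 and CSRP2 shared 41 of 52 (78.8%) in the first stretch. By sequence, therefore, CRIP1 lay nearer to CRIP2 than to CSRP1 or CSRP2. The deposited gene ontology annotation gave metal ion binding to all 5 members, zinc ion binding to CRIP1, CRIP2 and CSRP1, and focal adhesion to CSRP1 and CSRP2.

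The libraries held between 68704509 and 85317970 estimated counts. Between the labels, 6 of 19393 genes tested (0.0309%) passed an adjusted p under 0.05 in edgeR's quasi-likelihood test, and this count ran from 2 to 136 when 1 library was left out, with 136 without shControl 3. PTBP1 itself had 17.26, 16.90 and 17.96 FPKM (fragments per kilobase of gene and 1e6 fragments, as deposited) in shPTBP1 1, 2 and 3, against 21.17, 16.40 and 27.36 in shControl 1, 2 and 3. Its groups overlapped (log2 fold change -0.29, standard error 0.18, adjusted p = 0.953 in edgeR), so directions below are between libraries as labelled. Red-cell markers, 14 in number, summed to 851 and 760 CPM (counts per 1e6 counts) in shPTBP1 1 and 2 but 1.15 in shPTBP1 3, and to 1281 and 800 in shControl 1 and 2 but 1.32 in shControl 3, with HBB the highest. Of 19 hepatocyte and hepatocellular carcinoma markers, 4 passed the filter on low counts, led by KRT8 and KRT18, and 8 were listed at 0, among them ALB, AFP and APOB. In bulk RNA, fewer cells of a type and less RNA per cell cannot be told apart.

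CRIP1 (ENSG00000213145, chr14:105486317-105488791 on hg38, plus strand) was the member that separated the labels. It had 8.10, 7.42 and 7.19 FPKM in shPTBP1 1, 2 and 3, against 0.40, 0.49 and 0.61 FPKM in shControl 1, 2 and 3. Every shPTBP1 library lay far above every shControl library, and the spread within each label was small beside the gap. The means were 7.57 ± 0.473 FPKM in shPTBP1 and 0.50 ± 0.11 FPKM in shControl (SD, n = 3 each), a ratio of 15.1. The estimated counts behind these values were 1917, 1706 and 1565 in shPTBP1 and 83, 126 and 128 in shControl. Among genes above 0 FPKM, CRIP1 stood at the 78.8th to 80.6th percentile of its library in shPTBP1 and at the 37.6th to 42.7th in shControl. The fitted log2 fold change was 3.92 (standard error 0.21). Because CRIP1 was chosen from this contrast, the value carries no test here.

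CRIP2 (ENSG00000182809, chr14:105472962-105480170, plus strand) did not separate the labels. It had 1.71, 2.26 and 1.35 FPKM in shPTBP1 1, 2 and 3, against 0.82, 1.07 and 2.77 FPKM in shControl 1, 2 and 3. The highest and the lowest libraries were both shControl, so the groups overlapped. The means were 1.77 ± 0.458 FPKM in shPTBP1 and 1.55 ± 1.06 FPKM in shControl (SD, n = 3 each), and the log2 fold change was 0.22 (standard error 0.45). Leaving out 1 library moved this value from -0.08 without shControl 1 to 0.91 without shControl 3, with 0.02 without shPTBP1 2 and 0.02 without shControl 2.

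CSRP1, an actin-bundle protein, was the most abundant member per length in every library. CSRP1 (ENSG00000159176, chr1:201483530-201509456, minus strand) had 24.7, 30.7 and 36.1 FPKM in shPTBP1, against 26.6, 35.6 and 35.5 FPKM in shControl. The 2 ranges nearly coincided, and the log2 fold change was -0.06 (standard error 0.18). An antisense gene inside its span, AC096677.1, had 2.23 to 2.31 FPKM in shPTBP1 and 1.92 to 3.59 FPKM in shControl, and as no source says that strand was used in counting, their reads may be mixed.

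CSRP2, studied mostly in smooth muscle and in the actin protrusions of invading cells, came second in all 6 libraries. CSRP2 (ENSG00000175183, chr12:76858709-76879023, minus strand) had 9.85, 9.06 and 13.2 FPKM in shPTBP1, against 7.94, 5.62 and 13.8 FPKM in shControl. The library numbered 3 was the highest under either label and the groups overlapped. The log2 fold change was 0.27 (standard error 0.32), and leaving out 1 library moved it from 0.01 without shControl 2, and 0.08 without shPTBP1 3, to 0.67 without shControl 3.

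CRIP3 (ENSG00000146215, chr6:43299710-43308797, minus strand) was listed at 0 FPKM and 0 counts in all 6 libraries. A count of 0 allows up to 3 counts, which is 0.0378 to 0.0417 CPM in shPTBP1 and 0.0347 to 0.0439 CPM in shControl, for counting error only. CRIP3 did not pass the filter on low counts, so 4 of the 5 members were tested. Of these 4, 1 was called between the labels (CRIP1), beside the 0.0309% called over all genes. In the same way, 1 of the 4 had every shPTBP1 library above every shControl library, beside 6.49% of all genes tested. Both counts are set by the choice of CRIP1 and nothing is read from them.

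**Figure D1:**
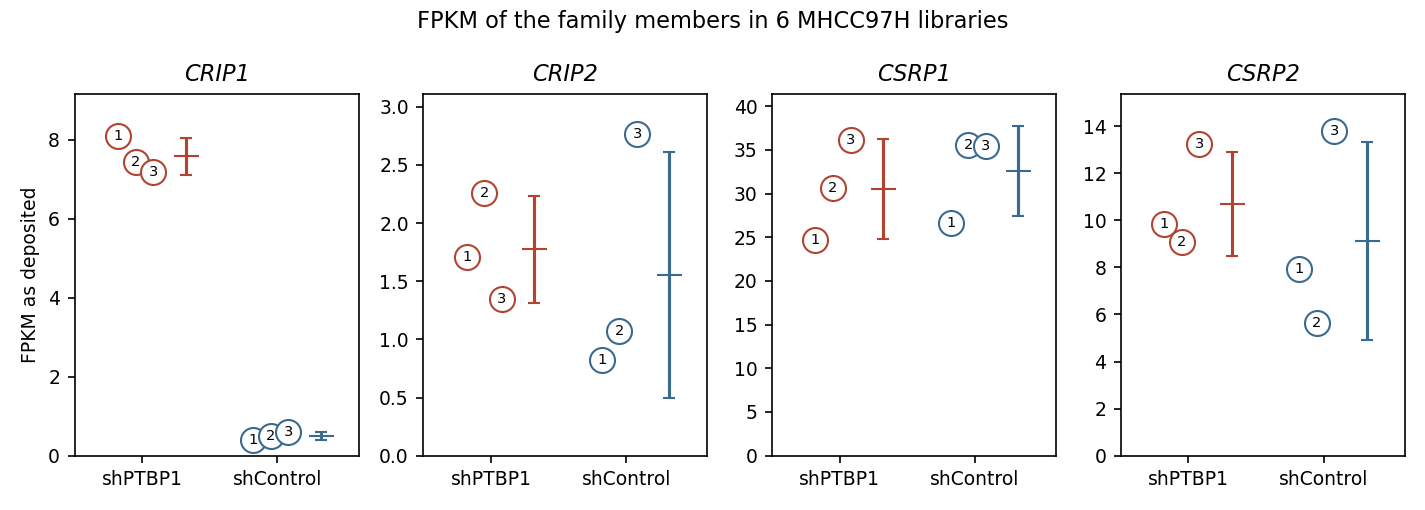
FPKM (vertical axes, each from 0) of CRIP1, CRIP2, CSRP1 and CSRP2 in shPTBP1 (red) and shControl (blue) libraries, with circles for single libraries bearing the library number and a dash with a bar for mean ± SD (n = 3). CRIP1 lies between 7.19 and 8.10 in shPTBP1 and between 0.40 and 0.61 in shControl, while the other members overlap and CRIP2 and CSRP2 are highest in shControl 3.

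The FPKM scale divides by a gene length, which matters when members are set beside each other. The ratio of count to FPKM, scaled on 621 genes with 1 annotated transcript, implied a length of 2487 to 2489 bases for CRIP1 in shPTBP1 and 2522 to 2562 bases in shControl. FPKM are given to the second decimal, and the bounds this rounding allows were 2485 to 2491 bases over shPTBP1 libraries and 2496 to 2583 bases over shControl libraries. The small difference between labels was not covered by the rounding of FPKM. These bounds leave out the rounding of counts to whole numbers, which weighs more in shControl, with 83 to 128 counts. The cause of the difference was not tested. The merged exons of CRIP1 in GENCODE span 2485 bases, and its longest coding transcript 1311. For CSRP1 these were 10318 and 2129 bases, and for CSRP2 5873 and 943. The divisor was thus close to the length of all annotated exons, including retained introns, and not to that of a coding transcript.

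The family total was 44.4, 49.4 and 57.9 FPKM in shPTBP1 1, 2 and 3, against 35.8, 42.8 and 52.7 FPKM in shControl 1, 2 and 3. CRIP1 made up 18.3%, 15.0% and 12.4% of this total in shPTBP1 and 1.12%, 1.15% and 1.16% in shControl. CSRP1 made up 55.7% to 62.4% in shPTBP1 and 67.4% to 83.2% in shControl. CRIP1 was thus the third member of the family in shPTBP1 libraries, above CRIP2, and the fourth in shControl libraries, below CRIP2. The FPKM ratio of CRIP1 to CRIP2 was 4.74, 3.28 and 5.33 in shPTBP1, against 0.488, 0.458 and 0.220 in shControl. With CPM divided by the longest coding transcript in place of the merged exons, the order of the members was the same in each library, and the share of CRIP1 was 4.98% to 7.67% in shPTBP1 and 0.427% to 0.448% in shControl.

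**Figure D2:**
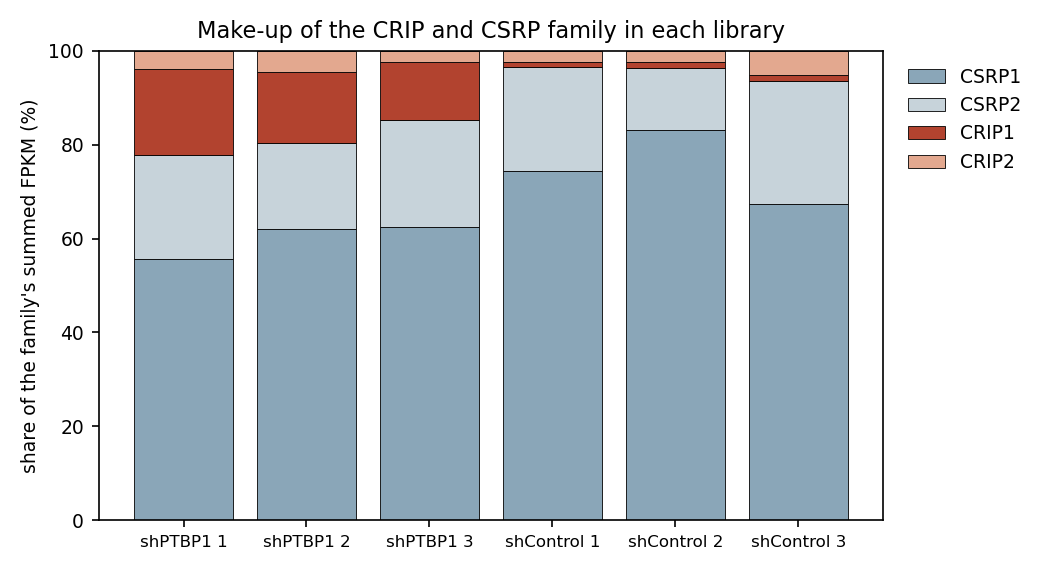
Share of the summed FPKM of the family (vertical axis, percent) taken by CSRP1, CSRP2, CRIP1 and CRIP2 in each library (horizontal axis, shPTBP1 left and shControl right). The CRIP1 segment covers 12.4% to 18.3% in shPTBP1 and 1.12% to 1.16% in shControl, and CSRP1 is the largest segment throughout.

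The members were also compared between the libraries numbered 3 and those numbered 1 and 2, a split that the choice of members did not use but that earlier results of these data had shown. The label was kept as a second term in edgeR. In this comparison 14 of 20512 genes (0.0683%) were called, a count that ran from 5 to 142 when 1 library was left out, with 142 without shPTBP1 3. Of the 4 members tested, 0 were called, and DESeq2 called 0. CSRP2 had 93.9 CPM in shPTBP1 3 and 93.5 CPM in shControl 3, against 69.0 and 63.0 CPM in shPTBP1 1 and 2 and 55.6 and 38.7 CPM in shControl 1 and 2. Number 3 was higher within each label, by 0.75 on the log2 scale (standard error 0.19, unadjusted p = 0.00683, adjusted p = 0.524 in edgeR). CRIP1 differed by 0.17 (standard error 0.19, adjusted p = 0.849 in edgeR), CRIP2 by 0.61 (adjusted p = 0.783) and CSRP1 by 0.28 (adjusted p = 0.749). Red-cell markers also differed by number (above), and their part in the values of CSRP2 was not tested.

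The difference of CRIP1 between the labels is also given within each set of numbers. CRIP1 was chosen from this contrast, so its values here are a description and not support. Its CPM was 21.7 in shPTBP1 3 and 1.81 in shControl 3, a log2 ratio of 3.58. In numbers 1 and 2 it was 24.2 and 22.0 CPM in shPTBP1, against 1.21 and 1.46 CPM in shControl, a log2 ratio of means of 4.11. CRIP2 went opposite ways. It had 7.98 CPM in shPTBP1 3 and 15.6 CPM in shControl 3, a log2 ratio of -0.97, but 9.96 and 13.0 CPM in shPTBP1 1 and 2 and 4.80 and 6.17 CPM in shControl 1 and 2, a log2 ratio of means of 1.07. The difference between these effects was -2.03 on the log2 scale (standard error 0.39, unadjusted p = 0.00351, adjusted p = 0.172 in edgeR over 22377 genes, of which 0.0134% were called). It did not pass the threshold, and the test was chosen after the values were seen. In number 3 each label has 1 library, so the spread behind this error and p comes only from numbers 1 and 2, which number 3 is assumed to share.

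**Figure D3:**
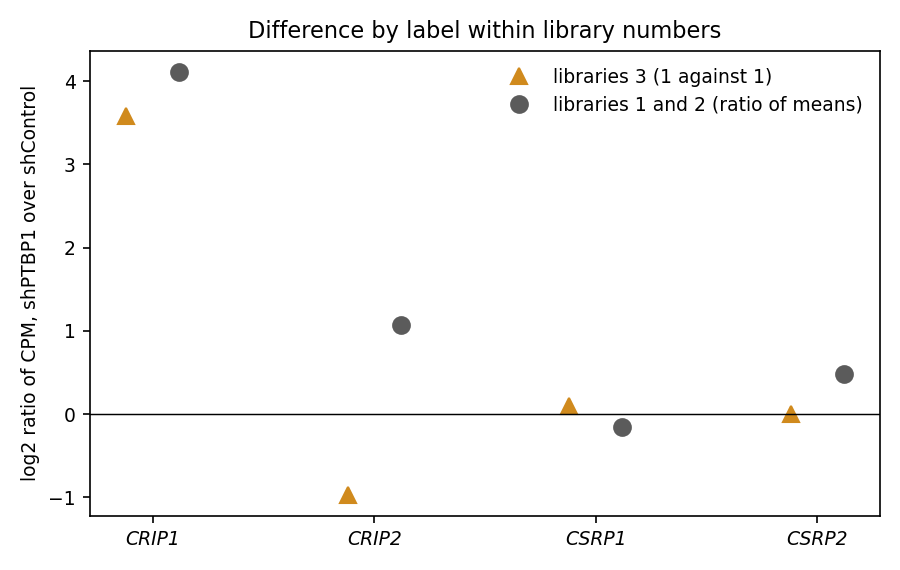
Log2 ratio of CPM, shPTBP1 over shControl (vertical axis), for each member, from the libraries numbered 3 (triangles, 1 library against 1) and from those numbered 1 and 2 (circles, ratio of the means of 2 libraries). CRIP1 is above 3 in both, CRIP2 is at -0.97 in number 3 and at 1.07 in numbers 1 and 2, and CSRP1 and CSRP2 lie within 0.49 of 0.

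CRIP1 and CRIP2 lie on the same strand with 6146 bases between them, so their surroundings were read gene by gene. MTA1, a chromatin remodelling subunit that ends 2232 bases before CRIP2, had 8.28, 8.72 and 8.13 FPKM in shPTBP1, against 6.56, 7.35 and 7.80 FPKM in shControl. Its groups did not overlap, but its log2 fold change of 0.24 (standard error 0.10) did not pass the threshold (adjusted p = 0.876 in edgeR). TEDC1, a tubulin complex protein that begins just beyond CRIP1, had 0.95, 1.18 and 1.71 FPKM in shPTBP1, against 0.89, 1.07 and 0.70 FPKM in shControl (log2 fold change 0.56, adjusted p = 0.923 in edgeR). AL928654.3, annotated as overlapping CRIP1 on the same strand, reached at most 0.20 FPKM in shPTBP1 and 0.25 FPKM in shControl. BRF1, PACS2, TEX22 and TMEM121 had log2 fold changes of 0.13 to 0.66, each with overlapping groups. Of these 7 neighbours, 0 passed the adjusted threshold in edgeR and 1 (MTA1) had an unadjusted p under 0.05, beside 5.69% of all genes tested.

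**Figure D4:**
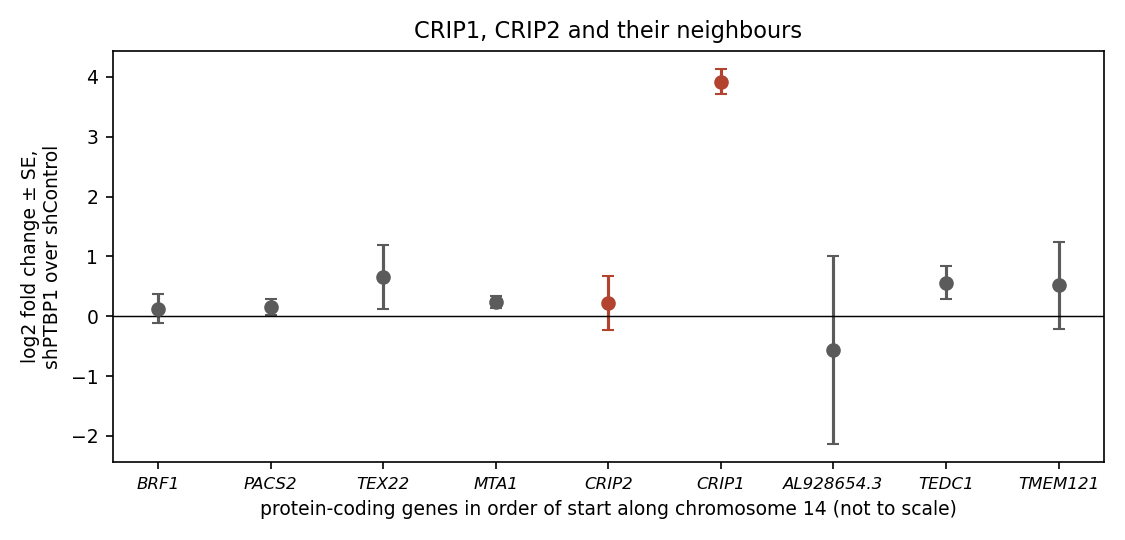
Log2 fold change, shPTBP1 over shControl, with its standard error (vertical axis) for CRIP1 and CRIP2 (red) and the 7 nearest protein-coding genes (grey), in their order along chromosome 14. CRIP1 stands at 3.92, and the other 8 lie between -0.56 and 0.66.

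The genes beside the other members were read in the same way. NAV3, beside CSRP2, had 0.12, 0.12 and 0.16 FPKM in shPTBP1, against 0.02, 0.07 and 0.04 FPKM in shControl, low values that did not overlap (log2 fold change 1.68, adjusted p = 0.641 in edgeR). OSBPL8, ZDHHC17 and E2F7 near CSRP2, PHLDA3, NAV1 and IPO9 near CSRP1, and ABCC10 near CRIP3 had log2 fold changes of -0.12 to 0.40 with overlapping groups. ZNF318, which overlaps CRIP3 on its strand, had 5.35 to 6.22 FPKM in shPTBP1 and 5.54 to 6.94 FPKM in shControl, while TNNI1, TTBK1 and SLC22A7 were listed at 0. The processed copies CRIP1P1, CRIP1P2, CRIP1P3 and CRIP1P4 had 0 counts in every library, and 0 of the 1262 windows of 50 bases in the CRIP1 transcript occurred unchanged in any of them.

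PTBP1 binds stretches of pyrimidines in RNA, and the letters CTCTCT and TCTT, taken as short forms of such stretches, were searched on the transcript strand of 1 coding transcript per member. The transcript of CRIP1, 1311 bases long, held CTCTCT 3 times, and the windows are printed with those letters in capitals.
CRIP1, base 114, before the coding part: ggggtggctgaaCTCTCTtttgccggccga
CRIP1, base 185, before the coding part: gctacagctcccCTCTCTgggagtccccgc
CRIP1, base 997, in the coding part: cgagagggtgacCTCTCTgggcaaggactg
The last match falls in the LIM stretch printed above. Of 1081 coding transcripts within 10% of this length, 36.5% held CTCTCT at least once and 4.53% at least 3 times. The other coding transcripts of CRIP1, of 485 and 677 bases, held it 1 time each. The transcripts read for CRIP2, CSRP1 and CSRP2 held it 0 times, and that of CRIP3, which was listed at 0 FPKM, 1 time. The count depends on the transcript read, and a coding transcript of CRIP3 of 800 bases held it 4 times. TCTT occurred 4 times in CRIP1, where the median of the like transcripts was 5 and 75.5% held at least as many. It occurred 1 time in CRIP2, 4 times in CRIP3, 11 times in CSRP1 and 6 times in CSRP2, counts that 99.6%, 65.5%, 33.8% and 42.6% of transcripts near each one's length reached. A match is a description of the letters and not a binding site, and the deposited values are per gene, so introns and splicing were not analysed here.

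Genes whose levels ran most like those of a member across the 6 libraries were ranked by Pearson's r of log2(CPM + 1) among 11985 genes with a mean of at least 1 FPKM. CRIP1 has 2 levels that follow the label, so a high r mainly says that a gene also differs by label, and r is given as a description. The highest were RF02142 (r = 0.997), TRAPPC6B (0.996), NXPH4 (0.994), CLDN12 (0.994) and DDX24 (0.990). CLDN12, a claudin, had 63.2, 51.2 and 50.6 CPM in shPTBP1, against 14.2, 14.2 and 13.8 CPM in shControl, and NXPH4, a neurexophilin, had 13.6, 14.8 and 12.3 CPM in shPTBP1, against 1.38, 2.00 and 2.56 CPM in shControl. Both were called (adjusted p = 0.0142 and 0.0441 in edgeR), whereas TRAPPC6B and DDX24 had small log2 differences of 0.35 and 0.43 that did not pass the threshold. RF02142, named only by that identifier, stood at 0.458 to 0.515 CPM in shPTBP1 and 0 to 0.0566 CPM in shControl and did not pass either. The lowest were ARRB1 (r = -0.999), HNMT (-0.997), PPT2 (-0.997), ACTL8 (-0.995) and CHCHD7 (-0.990). ACTL8, an actin-like protein, had 1.55, 1.42 and 1.53 CPM in shPTBP1, against 7.48, 6.95 and 7.60 CPM in shControl (adjusted p = 0.0249 in edgeR).

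The other members had other companions. CRIP2 ran with ASAP3 (r = 0.998), PHC1 (0.996) and AC069544 (0.990), all of them highest in shControl 3 as CRIP2 was. CSRP1 ran with H3F3B (r = 0.986), POP5 (0.976) and AL590666 (0.974). CSRP2 ran with PSME2 (r = 0.992), DNASE2 (0.991) and AKR1C1 (0.988), which were all highest in the libraries numbered 3. Between members r was 0.37 for CRIP1 with CRIP2, 0.41 for CRIP1 with CSRP2, -0.16 for CRIP1 with CSRP1, 0.59 for CRIP2 with CSRP2, 0.16 for CRIP2 with CSRP1 and 0.17 for CSRP1 with CSRP2. These values rest on 6 libraries that share 2 labels and are a description.

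Other LIM-domain genes were read from a list of 48, which holds mostly the PDLIM, FHL, LMO, LIMK, MICAL and zyxin families. Of these, 42 passed the filter on low counts, 0 were called by edgeR between the labels, and 1 higher and 0 lower had an unadjusted p under 0.05, beside 3.58% higher and 2.11% lower over all genes tested. Their log2 fold changes were positive in 18 and negative in 24, with a median of -0.06 beside -0.01 over all genes tested. MICAL2, an actin-oxidising enzyme, had 0.37, 0.49 and 0.64 FPKM in shPTBP1, against 0.16, 0.23 and 0.43 FPKM in shControl, with overlapping groups (log2 fold change 0.92, adjusted p = 0.876 in edgeR). TGFB1I1, a focal adhesion adaptor, had 0.48 to 0.67 FPKM in shPTBP1 and 0.36 to 0.46 FPKM in shControl (log2 fold change 0.53). PDLIM1, which binds alpha-actinin, had 23.4 to 25.5 FPKM in shPTBP1 and 20.8 to 22.6 FPKM in shControl (log2 fold change 0.20), and LMO4, a transcription cofactor, had overlapping groups (log2 fold change 0.32). None of these 4 passed the threshold.

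Genes driven by serum response factor and actin-binding partners, the setting of CSRP1 and CSRP2, were read from a list of 32 symbols. Of these, 28 were found in the table. The others, MKL1, MKL2, CYR61 and CTGF, are older symbols of MRTFA, MRTFB, CCN1 and CCN2, which were found. Of 25 tested, 0 were called, with 1 higher and 1 lower at an unadjusted p under 0.05 in edgeR. Over all genes tested these shares were 3.58% and 2.11%. The median log2 fold change was -0.12, beside -0.01 over all genes tested. ACTN1, the alpha-actinin that CSRP1 binds, had 19.0, 21.6 and 22.4 FPKM in shPTBP1, against 17.8, 15.6 and 15.4 FPKM in shControl (log2 fold change 0.40, adjusted p = 0.667 in edgeR). CALD1, caldesmon, had 65.3, 65.8 and 52.6 FPKM in shPTBP1, against 84.6, 87.5 and 71.1 FPKM in shControl (log2 fold change -0.38, adjusted p = 0.794 in edgeR). TPM4, a tropomyosin, differed by 0.21 and TAGLN2, a transgelin, by -0.18 on the log2 scale. The groups did not overlap in these 4, which are 4 of the 25 tested, beside 11.9% of all genes tested, and none passed the threshold.

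Zinc-handling genes, metallothioneins and zinc transporters, were read because the LIM fold binds zinc. Of 31 listed, 22 were tested, 7 were listed at 0 and 0 were called by edgeR. At an unadjusted p under 0.05 stood 1 higher and 1 lower, beside 3.58% higher and 2.11% lower over all genes tested. The median log2 fold change was -0.03, beside -0.01 over all genes tested. SLC39A6, a zinc importer, had 143.96, 150.80 and 132.39 FPKM in shPTBP1, against 82.08, 94.99 and 124.48 FPKM in shControl (log2 fold change 0.53, adjusted p = 0.639 in edgeR). MT1F, a metallothionein, had 0.45 to 0.49 FPKM in shPTBP1 and 0.13 to 0.37 FPKM in shControl. SLC39A9 and SLC39A13 had overlapping groups, with log2 fold changes of -1.18 and -0.51. None of these 4 passed the threshold.

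CRIP1 is also known from fibroblasts and immune cells, so markers of such cells were set beside it. Of 10 fibroblast and mesenchymal markers, 6 were tested. All 6 had positive log2 fold changes, beside 48% of all genes tested, but DCN and THY1 reached at most 0.06 and 0.04 FPKM. By edgeR 0 were called, with 1 higher and 0 lower at an unadjusted p under 0.05, beside 3.58% and 2.11% of all genes. The summed level of the 10 markers was 1202, 1186 and 1088 CPM in shPTBP1, against 971, 894 and 934 CPM in shControl. The sum was led by VIM, which many carcinoma lines also express. COL3A1, a fibrillar collagen, had 43.2, 41.3 and 32.4 FPKM in shPTBP1, against 20.1, 25.6 and 25.5 FPKM in shControl (log2 fold change 0.74, adjusted p = 0.336 in edgeR), while COL1A2 and POSTN were listed at 0. The 15 myeloid markers summed to 80.2, 76.8 and 44.6 CPM in shPTBP1 and 94.3, 68.5 and 59.0 CPM in shControl, led by CST3, and the 21 lymphocyte markers to 11.2 to 17.9 CPM in shPTBP1 and 17.0 to 19.7 CPM in shControl. In the libraries numbered 3, CST3 made up most of the myeloid sum (42.4 CPM under shPTBP1, 57.2 under shControl). IL32 made up most of the lymphocyte sum there (8.03 CPM under shPTBP1, 17.35 under shControl). LYZ was 0 in both libraries numbered 3, beside 6.07 and 5.10 CPM (shPTBP1 1, 2) and 9.20 and 6.29 (shControl 1, 2). MNDA, FCGR3B and CSF3R were also 0 there alone, and PTPRC and S100A9 reached at most 0.212 and 0.0566 CPM. CSF1R, CD4, IL7R and IL32 did not follow this split, and the source of these transcripts was not tested. VIM and COL3A1, 2 of the 6 mesenchymal markers tested, had every shPTBP1 library above every shControl library, beside 6.49% of all genes tested. DCN, PDGFRB, THY1 and COL1A1 (log2 fold change 0.006) had overlapping groups. The mesenchymal sum was higher in shPTBP1, and VIM (588 to 732 CPM over the libraries) made up most of it in each library. The part of mesenchymal cells in the level of CRIP1 was not tested.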

How the data were processed

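Poly(A) RNA of 6 MHCC97H libraries was sequenced, 3 labelled shPTBP1 and 3 labelled shControl. Per the labels, the submitters' processing notes name the build hg38 and the tools HISAT2 2.2.1, StringTie, cutadapt 1.9 and FastQC, and the use of strand in counting is not given in the sources used here. The authors deposited 1 table with FPKM values and with whole-number counts, which were treated as estimated counts, since 32.5% to 34.4% of those from 1 to 40 in each library were multiples of 4. The depth in fragments is therefore not known, and limits from a count of 0 cover counting error only. The deposited counts and FPKM ran closely together, since count over FPKM differed across libraries by 0.00136 (log2, median of 5620 genes reaching 5 FPKM throughout).

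The counts, scaled by TMM and filtered by filterByExpr, entered the quasi-likelihood F test of edgeR 4.0.16 under R 4.3.3, with Benjamini-Hochberg adjustment over all genes tested. The standard error is the absolute log2 fold change divided by the square root of F. CPM are TMM-normalized. Alternatives were DESeq2 1.42.0, other scalings and filters, counts divided by 4, limma 3.58.1 on log2(FPKM + 1) and log2(FPKM + 0.1), a replicate block, number 3 as a covariate, numbers 1 and 2 only, and leaving out each library. The steps were tested on simulated data. Neighbours, overlaps and transcripts came from GENCODE release 29, which holds 58552 of the 58825 identifiers. Python 3.11.15, pandas 2.3.3, numpy 2.4.6, Biopython 1.88 and matplotlib 3.10.9 were used.

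The members and the gene lists were chosen with earlier results of these data known. The named genes were PTBP1, the 5 members, the annotated copies of CRIP1, the 4 nearest protein-coding genes on each side of CRIP1 and CRIP2 and the 2 nearest on each side of the other members, the 5 highest and 5 lowest correlates of CRIP1 and the 3 highest of each other member tested, and the 4 genes of smallest p in each of the lists of LIM-domain, actin and zinc genes. HBB, KRT8, KRT18, CSRP3 and the markers of other cells were named after their values were seen.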

Additional observations from a re-analysis of the deposited data

Results flagged for a closer look

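CRIP2, a LIM-domain gene next to CRIP1, was singled out after its values were seen, because its difference between the labels went one way in the libraries numbered 3 and the other way in those numbered 1 and 2. The difference between these effects was -2.03 on the log2 scale (standard error 0.39, unadjusted p = 0.00351, adjusted p = 0.172 in edgeR), which did not pass the threshold. Number 3 has 1 library per label, so the error and p take their spread only from numbers 1 and 2. In number 3 CRIP2 had 7.98 CPM in shPTBP1 and 15.6 CPM in shControl, whereas numbers 1 and 2 had 9.96 and 13.0 CPM in shPTBP1 and 4.80 and 6.17 CPM in shControl.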

How the results depend on the processing

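CRIP1 was chosen from the contrast between the labels, so its calls and p-values below describe the settings and are not independent support. CRIP1 was called between the labels under every alternative except the replicate block. There its log2 fold change was 3.93 (adjusted p = 0.245 in edgeR) and 0 members and 0 genes passed. The numbers were not taken to pair the libraries, since the labels do not say what a number shares. Deviations of same-numbered libraries correlated at -0.07, 0.12 and 0.02 over all genes tested. Red-cell markers nevertheless differed by number under both labels (above), and what a number shares was not tested. Without 1 library, the log2 fold change of CRIP1 ran from 3.79 to 4.08 (adjusted p = 0.00382 to 0.0498 in edgeR) and 1 member was called each time. The 6 genes called between the labels became 166 in DESeq2, 1 in limma on log2(FPKM + 1) without a filter, 3 with number 3 as a covariate, 63 in numbers 1 and 2 only, and 2 to 136 without 1 library (136 without shControl 3). The 14 genes called between numbers became 273 in DESeq2 and 5 to 142 without 1 library (142 without shPTBP1 3), with 0 members called each time. Without 1 library the log2 fold change between the labels ran from -0.213 to 0.0662 for CSRP1, positive without shPTBP1 1 and without shControl 2 (0.0063), and from -0.0755 without shControl 1 to 0.912 without shControl 3 for CRIP2. Between numbers it ran from -0.0872 to 0.434 for CRIP1 and from -0.527 to 1.503 for CRIP2, negative for both only without shControl 3. The cause of these shifts was not tested. For CSRP2 the log2 fold change between the labels ran from 0.0149 without shControl 2 to 0.674 without shControl 3. The small counts of CRIP1 in shControl, 83 to 128, limit the precision of its ratio.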
